A study of Homo sapiens with 6 samples.

Results

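The genes described here are 28 genes of cholesterol synthesis, uptake and transport, taken by symbol from the 17911 genes listed in a table of RNA-seq values from LX-2 cells. All 28 were found in the table. LX-2 is an immortalised line of human hepatic stellate cells, the liver cells that store vitamin A and lay down scar matrix. Poly(A)-selected RNA was sequenced from MPI mutant cells, labelled as carrying a mutation of MPI exon 3, and from wild-type (WT) cells, with 3 libraries of each genotype. The MPI enzyme turns fructose 6-phosphate into mannose 6-phosphate and back, which places it ahead of protein glycosylation. Both genotypes were grown in the same serum-containing medium, and no further agent is labelled. The labels do not give the sequence change, how it was made, or whether the mutant is 1 clone or several. Nor do they say whether each library had a culture of its own, so each p-value measures only how these libraries spread, which may be technical variation.

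Cells build cholesterol from acetyl-CoA through mevalonate, the isoprenoid pyrophosphates, squalene and lanosterol. When membrane cholesterol is low, SCAP escorts the transcription factor SREBP2, the product of SREBF2, to the Golgi, where proteases free its active part, and the INSIG proteins hold SCAP back when sterols are plentiful. When oxysterols accumulate, the nuclear receptors LXR-alpha and LXR-beta raise export through ABCA1 and limit lipoprotein uptake through MYLIP. In mouse hepatic stellate cells, free cholesterol that accumulates is known to heighten the response to fibrogenic signals.

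Levels below are normalised read counts, meaning gene counts divided by the authors' size factor of each library. Fold changes are differences of log2(value + 1), MPI mutant minus WT, with the standard error (SE), and a gene is said to have risen or fallen where limma-trend gave a Benjamini-Hochberg adjusted p under 0.05 over all 17893 genes tested. The libraries held 27037905 to 34970840 recovered reads, and genotype lay on the first principal component (71.8% of the variance) while the library numbered 1 of each genotype stood apart on the second (15.9%). MPI itself had 1051, 978 and 1035 normalised reads in the mutant libraries, against 1292, 1283 and 1256 in the WT libraries. The log2 fold change of MPI was -0.32 ± 0.07 (limma adjusted p = 0.00648), and a count over the whole gene does not show what exon 3 carried.

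Most of the cholesterol genes that changed were lower in the mutant cells. Of the 28 genes, 12 fell, 3 rose and 13 did not pass the test. The 12 that fell are 42.9% of the genes, where 16.6% of all tested genes fell, and the 3 that rose are 10.7%, where 16.0% of all tested genes rose. The median log2 fold change of the 28 genes was -0.19, beside -0.0031 over all tested genes. Those that fell were HMGCS1, IDI1, FDFT1, SQLE, LSS, TM7SF2, MSMO1, DHCR7, SREBF2, INSIG1, STARD4 and MYLIP, and those that rose were PMVK, ABCA1 and SOAT1. In 14 genes every mutant library lay below every WT library and in 3 every mutant library lay above, beside 23.6% and 23.1% of all tested genes.

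**Figure D1:**
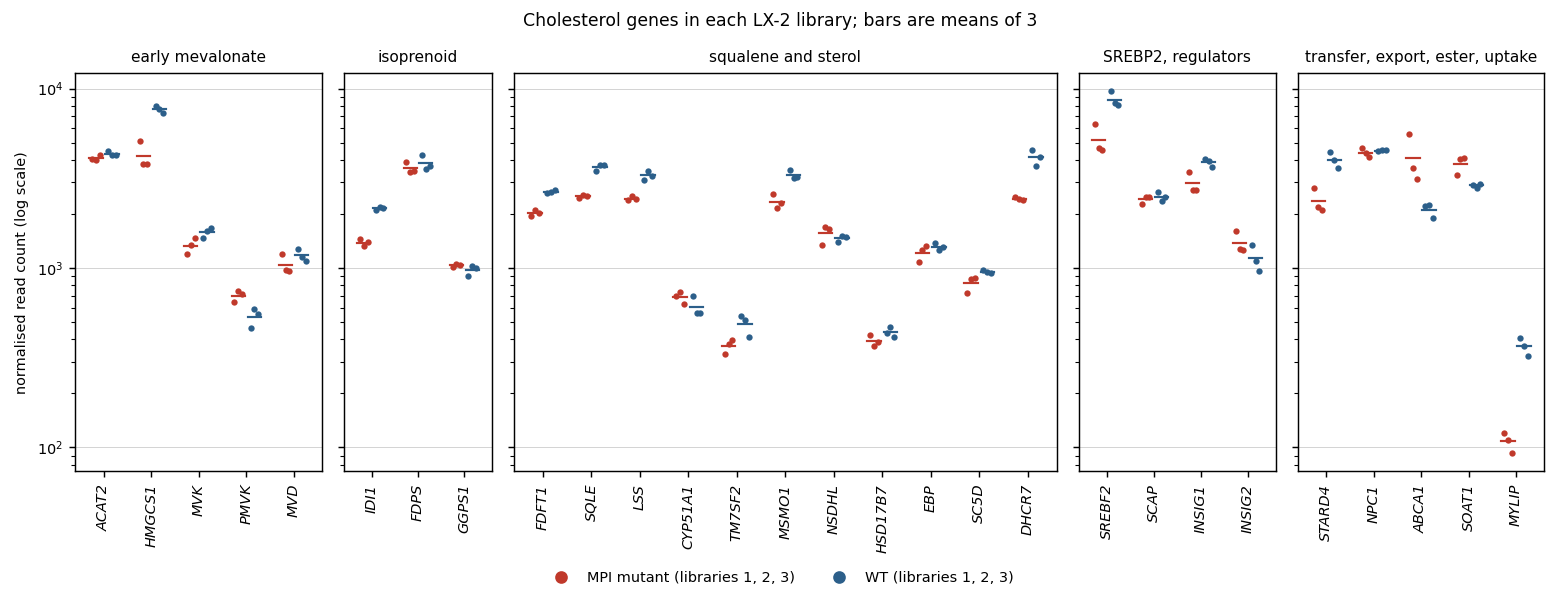
Normalised read count (log scale) of each of the 28 genes in each library, grouped by step, with MPI mutant in red to the left of WT in blue; points are libraries 1, 2 and 3 from left to right and bars are means of 3. HMGCS1, IDI1, SQLE, DHCR7, SREBF2, STARD4 and MYLIP show mutant points below all WT points, and ABCA1 and SOAT1 show the opposite.

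The libraries numbered 1 of both genotypes deviated together, so a fit with the replicate number as a block was also made. Whether the other same-numbered libraries form pairs is unclear. Deviations of mutant library 2 correlated at 0.299 with WT library 3 and at 0.189 with WT library 2. Calls that rest on the block, and values by same-numbered pair, carry this limit. With that replicate block 15 genes fell and 4 rose, beside 24.6% and 25.1% of all tested genes. The genes that passed only with the block were MVK, MVD and SC5D, which were lower, and INSIG2, which was higher. The count of 3 that rose rests on few libraries. It was 1 without mutant library 2 and 1 without mutant library 3, with ABCA1 as the gene that held, and 2 without WT library 1, WT library 2 or WT library 3. Leaving out 1 library gave between 10 and 13 that fell.

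**Figure D2:**
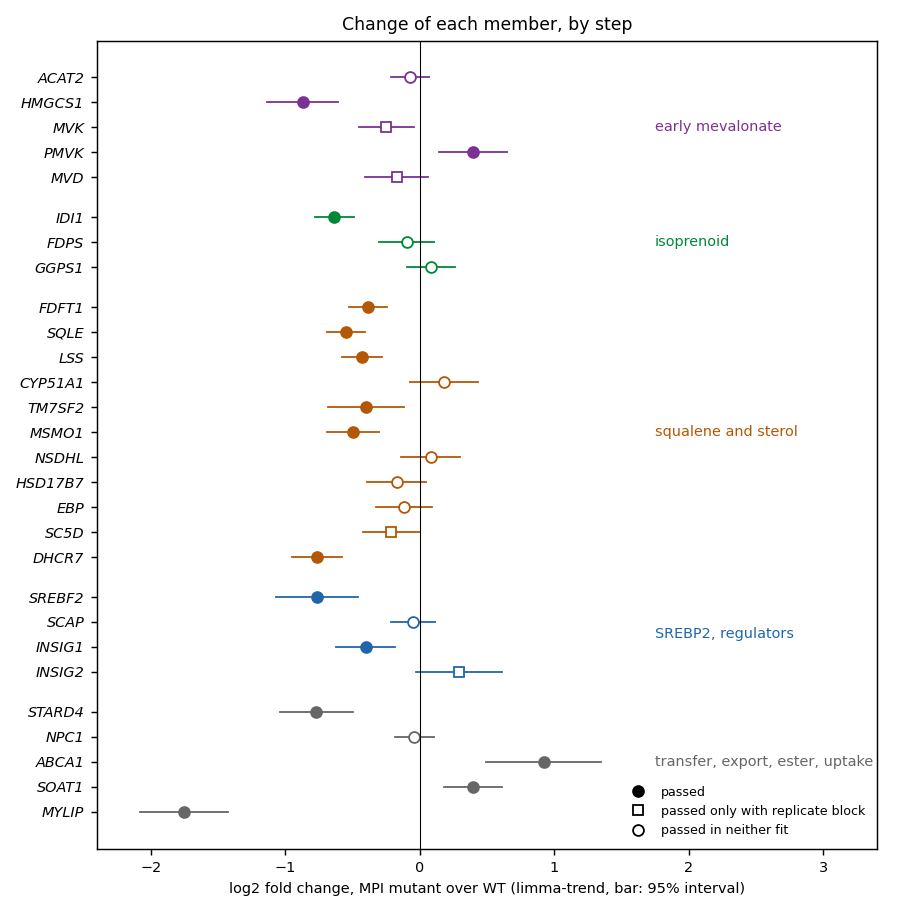
Log2 fold change of each gene, MPI mutant over WT, with its 95% interval from limma-trend, ordered and coloured by step; filled circles passed the test, open squares passed only with the replicate block and open circles passed in neither fit. MYLIP stands lowest at -1.75 and ABCA1 highest at 0.92, and among the squalene and sterol steps 6 of 11 genes passed, all on the lower side.

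The start regions of 6 genes are shown: the regulator SREBF2 itself, the early enzyme and the transfer protein that fell most, the gene with the largest fall, and PMVK and ABCA1, which rose. SOAT1, which also rose and whose window held an NF-Y box, is not shown, so the runs are no fair sample of the genes that rose. Each run is the 250 bases upstream of the annotated start on the gene's own strand, 5′ to 3′, from RefSeq, build GRCh38.p14. Capitals mark the sterol regulatory element TCACNCCAC and the NF-Y box CCAAT, each read on either strand, so that ATTGG is an NF-Y box on the opposite strand. The regions are chr22:41832855-41833104 (plus) for SREBF2 (ENSG00000198911), chr5:43313413-43313662 (minus) for HMGCS1 (ENSG00000112972), chr5:111512536-111512785 (minus) for STARD4 (ENSG00000164211), chr6:16128836-16129085 (plus) for MYLIP (ENSG00000007944), chr1:154936720-154936969 (minus) for PMVK (ENSG00000163344) and chr9:104928156-104928405 (minus) for ABCA1 (ENSG00000165029).
SREBF2: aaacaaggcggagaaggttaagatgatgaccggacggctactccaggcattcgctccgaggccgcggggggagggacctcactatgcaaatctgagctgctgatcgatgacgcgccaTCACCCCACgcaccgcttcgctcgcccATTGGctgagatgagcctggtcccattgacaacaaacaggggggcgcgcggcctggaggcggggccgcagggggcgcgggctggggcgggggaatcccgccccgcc
HMGCS1: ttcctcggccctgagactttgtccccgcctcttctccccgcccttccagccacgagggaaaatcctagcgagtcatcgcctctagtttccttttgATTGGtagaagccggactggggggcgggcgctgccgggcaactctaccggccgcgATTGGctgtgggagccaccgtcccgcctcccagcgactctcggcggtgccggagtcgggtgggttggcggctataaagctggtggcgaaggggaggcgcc
STARD4: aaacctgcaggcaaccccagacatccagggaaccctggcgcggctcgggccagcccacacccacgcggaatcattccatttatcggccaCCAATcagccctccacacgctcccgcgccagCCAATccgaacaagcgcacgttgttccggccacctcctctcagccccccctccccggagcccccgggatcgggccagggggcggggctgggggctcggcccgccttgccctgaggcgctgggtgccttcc
MYLIP: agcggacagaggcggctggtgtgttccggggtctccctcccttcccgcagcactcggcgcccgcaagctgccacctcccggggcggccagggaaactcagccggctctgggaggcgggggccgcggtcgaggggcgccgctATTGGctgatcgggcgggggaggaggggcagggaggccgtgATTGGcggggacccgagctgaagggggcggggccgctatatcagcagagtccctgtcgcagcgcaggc
PMVK: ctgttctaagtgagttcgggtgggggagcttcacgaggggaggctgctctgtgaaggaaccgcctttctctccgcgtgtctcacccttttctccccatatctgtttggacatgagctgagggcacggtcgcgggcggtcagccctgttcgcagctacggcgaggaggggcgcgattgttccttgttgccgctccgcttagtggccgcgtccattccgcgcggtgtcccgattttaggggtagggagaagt
ABCA1: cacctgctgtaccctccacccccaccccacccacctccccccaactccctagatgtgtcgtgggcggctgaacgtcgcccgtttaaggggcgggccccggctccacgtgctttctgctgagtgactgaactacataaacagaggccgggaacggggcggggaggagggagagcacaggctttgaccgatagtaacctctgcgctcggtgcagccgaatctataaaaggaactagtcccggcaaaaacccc

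Among the 25 genes with a window, SREBF2 alone held the full sterol regulatory element, from 133 to 125 bases before its start. An NF-Y box followed from 106 to 102 bases before. Elements of another form, or outside the window, were not searched for, so a missing match does not show that a gene lacks one. In the windows shown, HMGCS1 and MYLIP each held a pair of NF-Y boxes on the opposite strand, and STARD4 held a pair on its own strand. The window at the other annotated start of HMGCS1 held no NF-Y box. The windows of PMVK and ABCA1 held neither the full element nor an NF-Y box. Windows from 250 bases before to 50 bases after the start were found for 25 of the 28 genes, 33 windows in all, and not for ACAT2, FDFT1 and SQLE. The full element was in 1 of 33 windows (3.03%, exact 95% interval 0.0767 to 15.8%), beside 1.08% of 16549 windows of listed genes. Its shorter form CACNCCAC, which every full element contains, was in 6 of 33 windows (18.2%, exact 95% interval 6.98 to 35.5%). Of the windows of listed genes 5.94% held it. The matches were in windows of SREBF2, INSIG1, ABCA1, IDI1 and SC5D, the last with both of its starts. The SC5D windows overlap and hold the same site. Counted by gene, 5 of 25 had the shorter form (20%), beside 7.87% of listed genes.

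NF-Y is a trimeric factor that binds CCAAT boxes and is known to work beside SREBP2 at sterol-regulated promoters. Its box was in 21 of 33 windows (63.6%), beside 34.4% of the windows of listed genes and 34.6% of 35116 windows of all genes. Counted by gene, 19 of 25 had the box in at least 1 window (76.0%), beside 42.9% of 11378 listed genes. All 10 genes that fell and had a window held it, as did 1 of the 3 that rose (SOAT1) and 8 of the 12 that did not pass. The exceptions among those that did not pass were CYP51A1, SCAP, INSIG2 and NPC1. Over all tested genes with a window the shares lay close together: the box was in 44.6% of 2066 genes that fell, 41.9% of 2148 that rose and 42.7% of 7154 that did not pass. A match says only that these letters are in the window, and genes with several annotated starts have more windows in which to hold them.

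**Figure D3:**
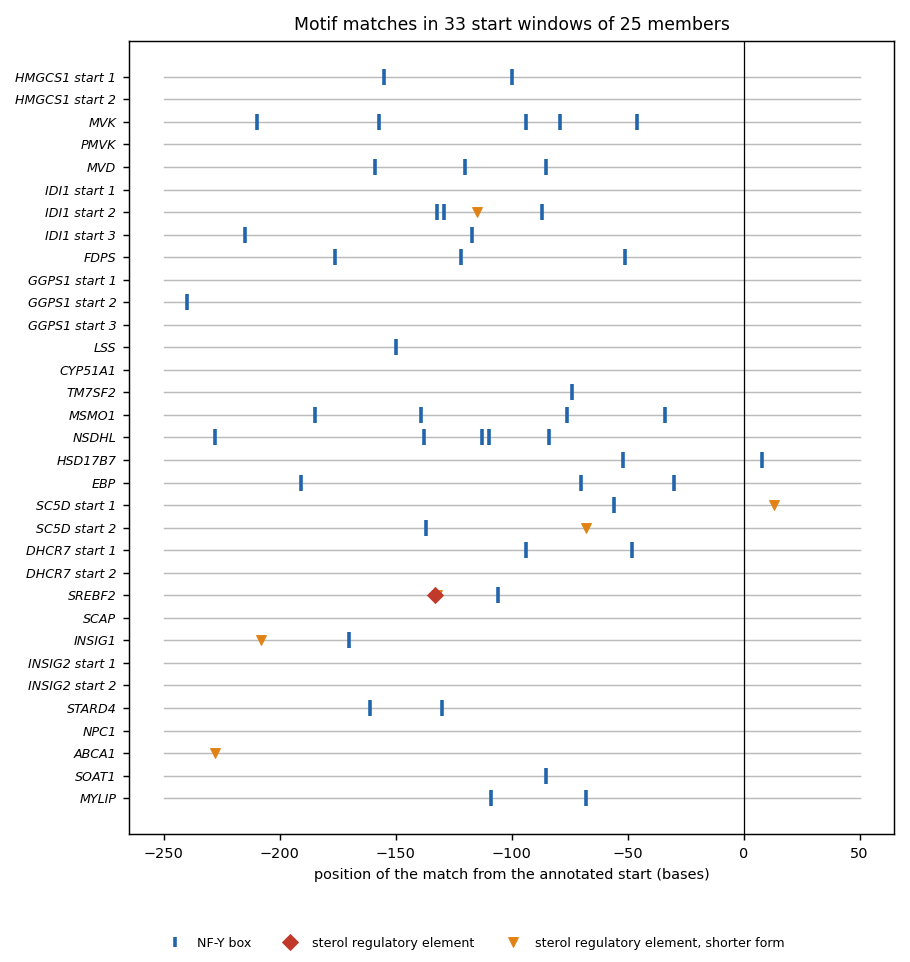
Positions of motif matches, in bases from the annotated start, in the 33 start windows of 25 genes; blue ticks are NF-Y boxes, the red diamond is the full sterol regulatory element and orange triangles are its shorter form. SREBF2 has the diamond at -133, and most NF-Y boxes lie upstream of the start.

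In the early mevalonate steps, from acetyl-CoA to isopentenyl pyrophosphate, 1 of 5 genes fell and 1 rose, with a median log2 fold change of -0.17. These shares of 20% each lay near the 16.6% and 16% of all tested genes. HMGCS1, the cytosolic enzyme that makes HMG-CoA, had 5093, 3809 and 3783 normalised reads in the mutant libraries, against 8018, 7699 and 7274 in the WT libraries. All mutant libraries lay below all WT libraries, and library 1 was the highest of each genotype. HMGCS1 changed by -0.87 ± 0.12 (limma adjusted p = 0.000797), a mean of 4228 ± 749 in the mutant cells, which is 0.552 of the 7664 ± 373 in WT cells (SD, n = 3 each). PMVK, which phosphorylates mevalonate phosphate, moved the other way, with 645, 745 and 716 normalised reads in the mutant libraries, against 461, 590.3 and 554 in the WT libraries. The lowest mutant library lay above the highest WT library, and PMVK rose by 0.40 ± 0.11 (limma adjusted p = 0.0253). That call was lost without mutant library 2 (limma adjusted p = 0.0987), mutant library 3 (0.0819), WT library 1 (0.0699) or WT library 3 (0.0583).

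MVK, the mevalonate kinase, had 1204, 1336 and 1462 normalised reads in the mutant libraries, against 1471, 1599 and 1671 in the WT libraries. The groups did not overlap, by a narrow margin between mutant library 3 and WT library 1. Its log2 fold change of -0.25, with a 95% interval from -0.45 to -0.04, missed the threshold (limma adjusted p = 0.0659), and it passed with the replicate block (0.00227). MVD, the decarboxylase that yields isopentenyl pyrophosphate, had 1196, 974 and 966 normalised reads in the mutant libraries, against 1276, 1153 and 1094 in the WT libraries. Mutant library 1 overlapped the WT range, and the change of -0.17 (95% interval -0.41 to 0.06, limma adjusted p = 0.239) passed with the block (0.0320). ACAT2, the cytosolic thiolase that makes acetoacetyl-CoA, had 4070.2, 4003 and 4280.4 normalised reads in the mutant libraries, against 4471, 4262 and 4260.2 in the WT libraries. Those ranges overlapped, with a log2 fold change of -0.07 (95% interval -0.21 to 0.07). In GENCODE 29, exons of ACAT2 overlap TCP1 and SOD2 on the opposite strand and those of MVK overlap MMAB. No source used here says whether counting took strand into account, so their counts may hold reads of those genes. Listed antisense genes likewise overlap 703 exon bases of HMGCS1, 693 of FDPS, 280 of SREBF2, 124 of STARD4 and 122 of LSS, and without strand their reads cannot be told apart.

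At the isoprenoid steps 1 of 3 genes fell (33.3%, beside 16.6% of all tested genes), with a median log2 fold change of -0.096. IDI1, which isomerises isopentenyl pyrophosphate, had 1445, 1321 and 1392 normalised reads in the mutant libraries, against 2099.8, 2189.9 and 2162 in the WT libraries. The spread within each genotype was narrow beside the gap, and IDI1 fell by 0.63 on the log2 scale (SE 0.06, limma adjusted p = 0.000205). FDPS, which makes farnesyl pyrophosphate at the branch towards sterols, dolichol and prenyl groups, had 3890.1, 3424 and 3450.3 normalised reads in the mutant libraries, against 4275, 3547 and 3703 in the WT libraries. Its groups overlapped, with a log2 fold change of -0.10 and a 95% interval from -0.30 to 0.11. GGPS1, which makes the geranylgeranyl pyrophosphate used for protein prenylation, had 1009, 1056 and 1044 normalised reads in the mutant libraries, against 898, 1033 and 1004 in the WT libraries. Here too the groups overlapped (0.09, 95% interval -0.09 to 0.26). FDPS has processed pseudogenes, and GGPS1 shares 1422 bases of exon with TBCE on the same strand, so reads of these genes could be split between copies or neighbours in counting.

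The squalene and sterol steps, the largest group of the 28, held the most genes that fell. Of their 11 genes 6 fell (54.5%, beside 16.6% of all tested genes), none rose, and the median log2 fold change was -0.39. With the replicate block 7 of the 11 fell and none rose, where 24.6% and 25.1% of all tested genes did so. By share the group was close to SREBP2 and its regulators (50% fell) and to the 28 genes together (42.9%). FDFT1, the squalene synthase that commits farnesyl pyrophosphate to sterols, had 1944, 2113 and 2032 normalised reads in the mutant libraries, against 2604, 2638 and 2707 in the WT libraries. SQLE, the squalene epoxidase, had 2469, 2536 and 2514 normalised reads in the mutant libraries, against 3482, 3754 and 3769 in the WT libraries. LSS, which closes the lanosterol ring system, had 2386, 2506 and 2416 normalised reads in the mutant libraries, against 3111, 3476 and 3249 in the WT libraries. None of these 3 consecutive enzymes showed any overlap between the genotypes. FDFT1 fell by 0.39 (SE 0.06, limma adjusted p = 0.00213), SQLE fell by 0.55 (SE 0.06, limma adjusted p = 0.000335) and LSS fell by 0.43 (SE 0.07, limma adjusted p = 0.00168), all on the log2 scale. MSMO1, which removes the methyl groups at carbon 4 of the sterol ring, had 2592, 2148 and 2292 normalised reads in the mutant libraries, against 3525, 3175 and 3215 in the WT libraries. Library 1 was the highest of each genotype, the groups did not overlap, and MSMO1 fell by 0.50 on the log2 scale (SE 0.08, limma adjusted p = 0.00278).

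DHCR7, which reduces 7-dehydrocholesterol to cholesterol in the last step of one branch, had 2485, 2416 and 2379.7 normalised reads in the mutant libraries, against 4543, 3708 and 4138 in the WT libraries. The mutant libraries lay close together and far below the lowest WT library, and DHCR7 fell by 0.76 on the log2 scale (SE 0.08, limma adjusted p = 0.000270). TM7SF2, a sterol reductase that acts after lanosterol, had 333, 377 and 396 normalised reads in the mutant libraries, against 538, 511 and 413 in the WT libraries. WT library 3 lay just above the mutant range, and the change of -0.40 ± 0.12 (limma adjusted p = 0.0386) was -0.69, -0.44 and -0.06 in the same-numbered pairs 1, 2 and 3. The call for TM7SF2 was lost without mutant library 2 (limma adjusted p = 0.0902), mutant library 3 (0.0595), WT library 1 (0.126) or WT library 2 (0.134).

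The other sterol enzymes did not pass the test. SC5D, the desaturase just ahead of DHCR7, had 727, 874 and 875 normalised reads in the mutant libraries, against 976, 944 and 940.0 in the WT libraries. Its groups did not overlap, and its log2 fold change of -0.21 (95% interval -0.42 to -0.01, limma adjusted p = 0.104) passed only with the block (0.0273). CYP51A1, the lanosterol demethylase, had 696, 731 and 628 normalised reads in the mutant libraries, against 698, 561 and 559.7 in the WT libraries. WT library 1 lay within the mutant range, and the log2 fold change was 0.18 (95% interval -0.07 to 0.43). CYP51A1 shares 2844 of its 3584 exon bases with a read-through gene on the same strand, so its count is uncertain.

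NSDHL and HSD17B7 act with MSMO1 in removing the carbon 4 methyl groups, and EBP then shifts a ring double bond. NSDHL ranged from 1344 to 1686 normalised reads in the mutant libraries and from 1394 to 1514 in the WT libraries (log2 fold change 0.08, 95% interval -0.14 to 0.30). HSD17B7 ranged from 367 to 421 in the mutant libraries and from 414 to 472 in the WT libraries (-0.17, 95% interval -0.39 to 0.05). EBP ranged from 1074 to 1324 in the mutant libraries and from 1261 to 1375 in the WT libraries (-0.11, 95% interval -0.32 to 0.09). All 3 overlapped between the genotypes, so the complex that demethylates carbon 4 had 1 enzyme gene that fell, MSMO1, and 2 whose intervals include 0. HSD17B7 has near-identical pseudogene copies that could take some of its reads.

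Among SREBP2 and its regulators 2 of 4 genes fell (50%, beside 16.6% of all tested genes). With the block 2 fell and 1 rose, where 24.6% and 25.1% of all tested genes did so. SREBF2 had 6307, 4637 and 4524 normalised reads in the mutant libraries, against 9648, 8272 and 8101 in the WT libraries. Library 1 was the highest of each genotype, yet mutant library 1 lay below every WT library. SREBF2 changed by -0.76 ± 0.13 (limma adjusted p = 0.00303), with -0.61, -0.83 and -0.84 in the same-numbered pairs. INSIG1, which retains SCAP in the endoplasmic reticulum and is itself an SREBP target, had 3415, 2737 and 2732 normalised reads in the mutant libraries, against 4042, 3961 and 3673 in the WT libraries. The groups did not overlap, and INSIG1 changed by -0.40 ± 0.10 (limma adjusted p = 0.0138). Without mutant library 2, mutant library 3 or WT library 2 the limma adjusted p of INSIG1 was 0.0596, 0.0557 or 0.0586, above the threshold of 0.05 in each case.

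INSIG2, a second retention protein that is not an SREBP target, had 1616, 1275 and 1253 normalised reads in the mutant libraries, against 1341, 1093 and 958 in the WT libraries. Library 1 was highest in both genotypes and WT library 1 lay above mutant libraries 2 and 3, so the groups overlapped. The log2 fold change of INSIG2 was 0.29, with a 95% interval from -0.03 to 0.61 (limma adjusted p = 0.147). Within the same-numbered pairs it was 0.27, 0.22 and 0.39, and the blocked fit passed (limma adjusted p = 0.000975). SCAP had 2285, 2491 and 2479 normalised reads in the mutant libraries, against 2663, 2366 and 2478 in the WT libraries. Those ranges overlapped, with a log2 fold change of -0.05 and a 95% interval from -0.21 to 0.11.

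Genes of transfer, export, esterification and uptake control moved in both directions, with 2 of 5 that fell and 2 that rose. That is 40% each way, beside 16.6% and 16% of all tested genes. MYLIP, an LXR target whose product IDOL marks lipoprotein receptors for degradation, had 121, 111 and 93.1 normalised reads in the mutant libraries, against 409, 367 and 323 in the WT libraries. The genotypes were far apart, with a mutant mean of 108 ± 13.9 that is 0.295 of the WT mean of 366 ± 43.2 (SD, n = 3 each). MYLIP changed by -1.75 ± 0.14 (limma adjusted p = 6.48e-05), with -1.75, -1.72 and -1.78 in the same-numbered pairs. ABCA1, the exporter that loads cholesterol onto apolipoproteins and the other LXR target of the set, had 5575, 3629.8 and 3142 normalised reads in the mutant libraries, against 2202, 2235 and 1899 in the WT libraries. Every mutant library lay above every WT library, and mutant library 1 stood well above the other two. ABCA1 rose by 0.92 ± 0.19 (limma adjusted p = 0.00639), and without mutant library 1 the change was 0.68 (limma adjusted p = 0.000100). The LXR targets ABCA1 and MYLIP therefore differed in opposite directions in the same libraries.

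STARD4, a soluble sterol carrier between the plasma membrane and the endoplasmic reticulum and itself an SREBP target, had 2809, 2180.2 and 2117 normalised reads in the mutant libraries, against 4410.2, 4012 and 3619.7 in the WT libraries. The genotypes did not overlap, and STARD4 fell by 0.77 on the log2 scale (SE 0.12, limma adjusted p = 0.00177). SOAT1, which esterifies cholesterol for storage, had 3278, 4060.2 and 4109 normalised reads in the mutant libraries, against 2918, 2789.5 and 2943 in the WT libraries. Mutant library 1 was the lowest of the mutants and still above all WT libraries, and SOAT1 rose by 0.40 ± 0.09 (limma adjusted p = 0.0124). That call was lost without mutant library 2 (limma adjusted p = 0.0549), mutant library 3 (0.0507) or WT library 2 (0.0574). NPC1, which moves cholesterol out of the lysosome, had 4661, 4357 and 4173 normalised reads in the mutant libraries, against 4493, 4527 and 4516 in the WT libraries. The WT range lay inside the mutant range, with a log2 fold change of -0.04 and a 95% interval from -0.19 to 0.11, and NPC1 shares 604 exon bases with RMC1 on the opposite strand.

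Library 1 of each genotype leaned the same way in many of these genes. It was the highest library of both genotypes in 10 of the 28 genes (35.7%, beside 25.9% of all tested genes) and the lowest of both in 7, beside 29.1% of all tested genes. Within same-numbered pairs, the mutant library was the lower in all 3 pairs in 17 genes (60.7%, beside 34.3% of all tested genes) and the higher in all 3 in 5 (17.9%, beside 34.8%). In mutant library 1, SREBF2 lay 0.46 above the mean of mutant libraries 2 and 3 on the log2 scale, HMGCS1 lay 0.42 above, INSIG1 lay 0.32 above and ABCA1 lay 0.72 above. WT library 1 lay 0.24 above the other WT libraries for SREBF2 and 0.10 above for both HMGCS1 and ABCA1. With both libraries numbered 1 left out, 15 genes fell and 6 rose, and all 15 genes that passed over all libraries kept their calls. The calls over all tested genes grew as well, to 4758 that fell and 4984 that rose, from 2963 and 2866 with all libraries. The genes added were MVK, MVD and HSD17B7, which were lower, and CYP51A1, NSDHL and INSIG2, which were higher. The small differences of EBP and SCAP changed sign there, to 0.0065 and 0.038, and did not pass. What sets the libraries numbered 1 apart is not labelled and was not tested.

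Levels can be compared between genes only per length, so each value was also divided by the gene's exon length and scaled to 1000000 over the listed genes. On this length-scaled level HMGCS1 was in place 3 of the 28 genes in mutant cells and in place 1 in WT cells, at 109 ± 23.9 in mutant cells and 210.3 ± 13.9 in WT cells (SD, n = 3 each). FDPS came first in mutant cells, at 117 ± 13.1 there and 133 ± 14.9 in WT cells. ACAT2 at 116 ± 4.49, HMGCS1 and FDPS did not differ beyond their spread in mutant cells. SREBF2 was in place 7 in mutant cells and place 2 in WT cells, at 83.0 ± 19.5 in mutant cells and 148 ± 16.7 in WT cells, and its WT level did not differ beyond the spread from those of MSMO1 (147 ± 10.5), INSIG1 (138 ± 9.22) and FDPS. The order depends on the length used: with the longest transcript, HMGCS1 was still in place 1 in WT cells, but FDPS was in place 2, DHCR7 in place 3 and SREBF2 in place 4. ABCA1 was in place 17 in mutant cells and place 23 in WT cells, at 44.3 ± 15.7 in mutant cells and 24.0 ± 2.48 in WT cells. MYLIP was lowest of the 28 in mutant cells at 4.33 ± 0.707, against 15.6 ± 2.10 in WT cells, where HSD17B7 was lowest at 11.9 ± 0.909. With the longest transcript MYLIP was the lowest in WT cells too. The median over 17828 genes with a length was 13.2 in mutant cells and 14.3 in WT cells, so most of the cholesterol genes were above the typical listed gene in both genotypes.

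**Figure D4:**
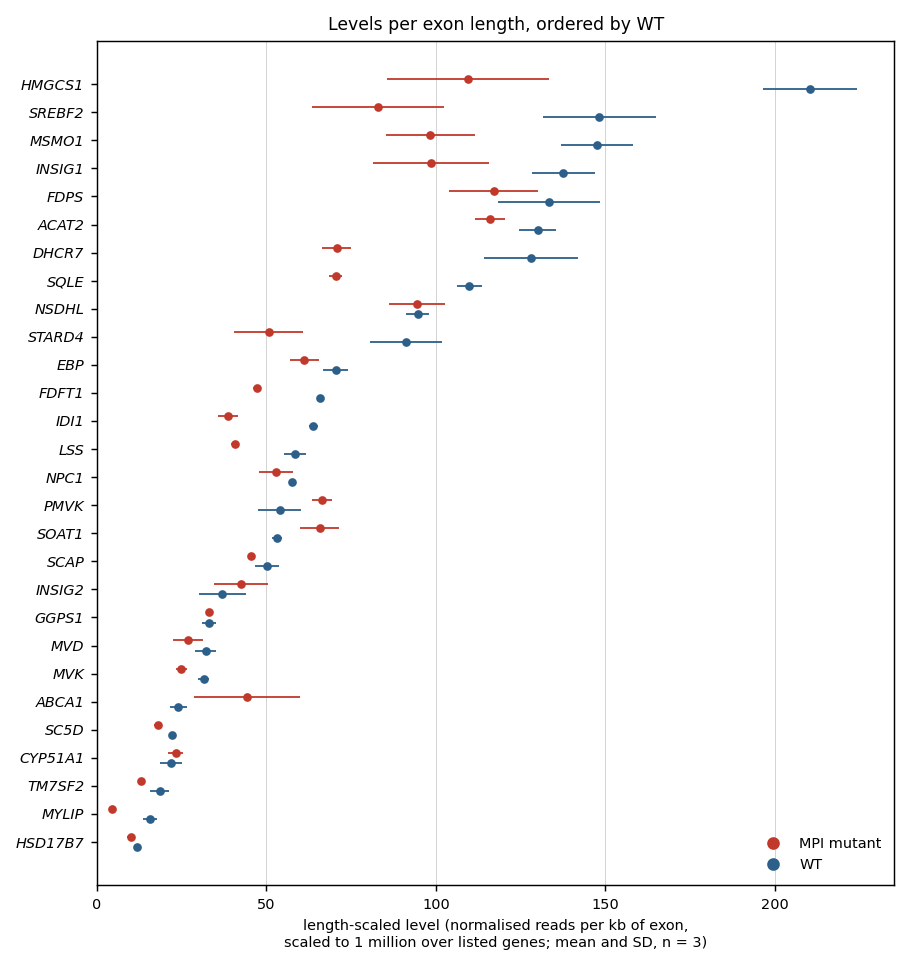
Length-scaled level (normalised reads per kilobase of exon, scaled to 1000000 over listed genes) of the 28 genes, ordered by WT, with MPI mutant in red above WT in blue; points are means and bars are SD of 3 libraries. HMGCS1 shows the widest gap, at 109 in mutant cells and 210.3 in WT cells, while NSDHL and GGPS1 lie almost on top of each other.

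Other genes of the pathway were counted in lists chosen by function. Of 11 genes of SREBP processing and sterol-regulated degradation, 3 fell (27.3%) and none rose, with a median log2 fold change of -0.05. Over all tested genes 16.6% fell and 16% rose. MBTPS1, the site-1 protease that makes the first cut in SREBP, averaged 1483 ± 43.9 normalised reads in mutant cells and 2149 ± 55.7 in WT cells (SD, n = 3 each; -0.54 ± 0.06, limma adjusted p = 0.000389). MBTPS2, the protease of the second cut, averaged 1807 ± 152 in mutant cells and 1497 ± 149 in WT cells, and its log2 fold change of 0.27 did not pass (limma adjusted p = 0.0595) but did with the block (0.00101). The others that fell were ERLIN1 (-0.49 ± 0.06), an endoplasmic reticulum protein that takes part in sterol-regulated degradation, and TMEM97 (-0.29 ± 0.07), a sterol-binding membrane protein. LBR, a second reductase for the double bond that TM7SF2 reduces, was the 1 gene of 6 that fell in the list of other sterol and acetoacetate enzymes (-0.51 ± 0.07, limma adjusted p = 0.000934). That 1 gene is 16.7% of its list, near the share of all tested genes that fell. Both genes of that reductase step, TM7SF2 and LBR, were thus lower in the mutant.

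Among 10 other lipoprotein receptor and lysosomal genes none fell and 2 rose (20%, beside 16% of all tested genes). Those that rose were SCARB1 (0.31 ± 0.07), a receptor for high-density lipoprotein, and STARD3 (0.25 ± 0.08), a late endosomal sterol carrier. Of 14 other sterol transfer genes 4 fell and 3 rose (28.6% and 21.4%, beside 16.6% and 16% of all tested genes). The largest changes there were GRAMD1A, which averaged 1774 ± 45.0 normalised reads in mutant cells and 1029 ± 71.7 in WT cells (0.79 ± 0.07), and GRAMD1C, which averaged 255 ± 56.5 in mutant cells and 405 ± 19.2 in WT cells (-0.69 ± 0.15). Both encode Aster proteins, which carry cholesterol from the plasma membrane to the endoplasmic reticulum, and they moved in opposite directions. OSBPL1A (0.54 ± 0.09) and OSBPL10 (-0.46 ± 0.10), of the oxysterol-binding protein family, did so too.

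In the list of LXR, oxysterol, efflux and ester hydrolysis genes 11 of 13 were listed in the table, and 4 of them fell and 1 rose, MYLIP and ABCA1 included. These are 36.4% and 9.09%, beside 16.6% and 16% of all tested genes. LPCAT3, an LXR target that builds arachidonoyl phospholipids, averaged 536 ± 19.7 normalised reads in mutant cells and 900 ± 32.6 in WT cells (-0.75 ± 0.07, limma adjusted p = 0.000186). The receptors themselves did not pass: NR1H2 had a log2 fold change of 0.08 ± 0.09 and NR1H3 of -0.01 ± 0.19. CYP27A1 and ABCG1 were named after their values were seen. CYP27A1, which makes 27-hydroxycholesterol, averaged 15.4 ± 2.24 in mutant cells and 98.2 ± 16.3 in WT cells (-2.59 ± 0.22, limma adjusted p = 7.14e-05). ABCG1, another LXR-controlled exporter, averaged 5.99 ± 3.12 in mutant cells and 17.2 ± 3.19 in WT cells (-1.46 ± 0.41, limma adjusted p = 0.0245). The exporters ABCA1 and ABCG1 thus differed in opposite directions, but ABCG1 was near the floor. Its mutant libraries held 9.28, 5.63 and 3.07 normalised reads. ABCG1 reached the minimum mean of tested genes only through the WT libraries, so its side of this contrast rests on few reads.

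The branches that draw on farnesyl and geranylgeranyl pyrophosphate did not move one way. Of 9 dolichol genes 1 fell and 2 rose (11.1% and 22.2%, near the 16.6% and 16% of all tested genes). NUS1, a subunit of the enzyme that makes the dolichol chain, averaged 3896 ± 383 normalised reads in mutant cells and 2776 ± 29.6 in WT cells (0.48 ± 0.08, limma adjusted p = 0.00249). DPM1, the catalytic subunit of dolichol-phosphate mannose synthase, averaged 2820 ± 433 in mutant cells and 1960.2 ± 174 in WT cells (0.52 ± 0.12, limma adjusted p = 0.0113), while its partner DPM2 averaged 1011 ± 46.0 in mutant cells and 1251 ± 16.2 in WT cells (-0.31 ± 0.07, limma adjusted p = 0.00907). This synthase joins the mannose pathway, which MPI feeds, to the isoprenoid pathway. Of 14 prenylation and ubiquinone genes 5 fell and 3 rose (35.7% and 21.4%, beside 16.6% and 16% of all tested genes). CHML, a Rab escort protein, had 425, 386 and 352 normalised reads in the mutant libraries, against 1419, 1437 and 1449 in the WT libraries. That is a change of -1.89 ± 0.09 with no overlap (limma adjusted p = 4.93e-06). Prenyltransferase subunits moved both ways. PGGT1B (-0.36 ± 0.07) and FNTB (-0.30 ± 0.09) fell, RABGGTB (0.30 ± 0.06) rose, and FNTA (-0.04) and RABGGTA (0.14) did not pass. PDSS2 (0.38 ± 0.09), which makes the ubiquinone tail, rose.

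Of 12 SREBP1 and fatty acid targets 4 fell and 1 rose, with a median log2 fold change of -0.20. These are 33.3% and 8.33%, beside 16.6% and 16% of all tested genes. FADS2 and FADS1, the delta-6 and delta-5 desaturases, fell most, by 1.24 and 0.92 on the log2 scale. FADS2 averaged 6455 ± 1384 normalised reads in mutant cells and 15070.2 ± 1071 in WT cells (limma adjusted p = 0.000315), and FADS1 averaged 5715 ± 690.3 in mutant cells and 10796 ± 1237 in WT cells (limma adjusted p = 0.000455). ACSL3 fell by 0.35 and GPAM, which starts glycerolipid synthesis, rose by 0.68. SREBF1, the gene of SREBP1, did not pass (-0.53 ± 0.19, limma adjusted p = 0.0568) and passed with the block (0.00142). Mutant library 1 held 1961 normalised reads of SREBF1, above 1209 and 1166 in mutant libraries 2 and 3, against 2238, 2047 and 1835 in the WT libraries.

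**Figure D5:**
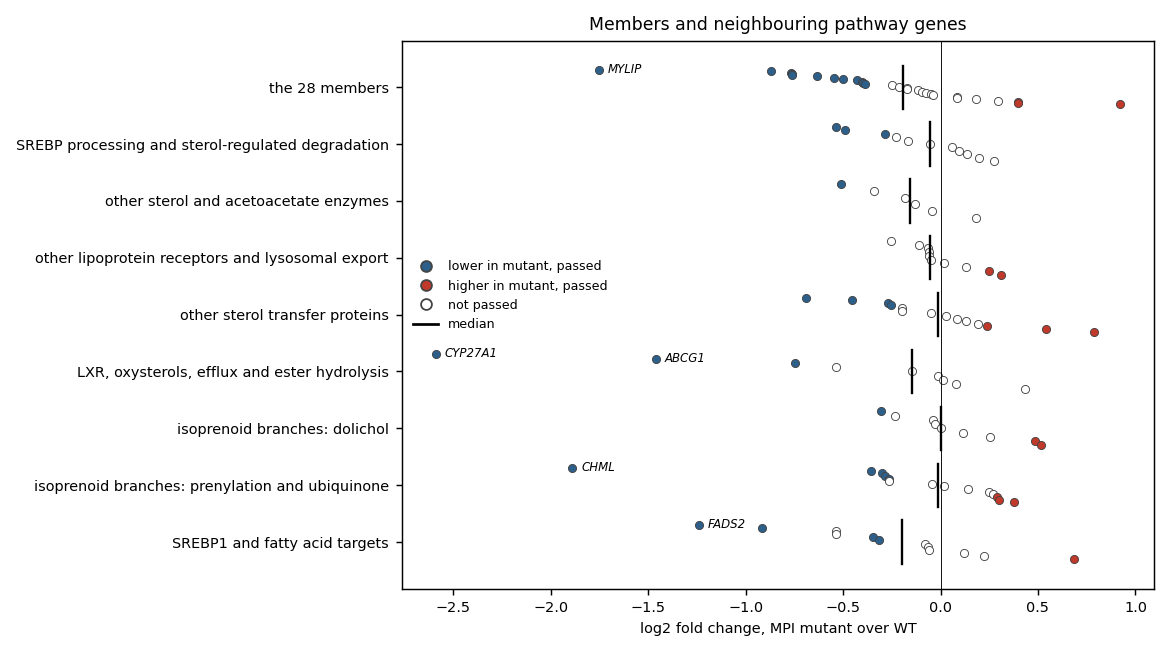
Log2 fold change, MPI mutant over WT, of the 28 genes (top) and of genes in 8 other lists of the pathway; blue points fell, red points rose, white points did not pass the test and the black bar is the median of each list. ABCA1 and MYLIP are drawn in the top row alone, whose median is -0.19, and SCD is drawn in both of its lists.

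Markers of the labelled cell type were present: 10 of 12 stellate and fibroblast markers were listed, without DES and LRAT, with a summed level of 185658 to 216281 normalised reads in the mutant libraries and 163997 to 172102 in the WT libraries. VIM and COL1A1 make up most of that sum, and the list moved both ways: VIM (0.27) and TIMP1 (0.94) rose, while COL1A2 (-1.37), ACTA2 (-0.97) and PDGFRB (-0.47) fell. Of 7 hepatocyte markers SERPINA1 was listed and ALB was not, with 62.4 to 105 normalised reads in the mutant libraries and 155 to 173 in the WT libraries. The 5 macrophage markers listed of 7 summed to 339 to 372 in the mutant libraries and 525 to 605 in the WT libraries. CD14 (-1.72) fell and set that difference, while CD68 (0.74), CSF1R (0.92) and LYZ (2.79) rose. LYZ and CSF1R were near the floor. LYZ had 15.4 to 28.8 normalised reads in the mutant libraries and 1.16 to 2.72 in the WT libraries, at most 3 reads. It reached the minimum mean of 10 only through the mutant libraries. CSF1R averaged 47.4 in mutant cells and 24.7 in WT cells. The 5 endothelial markers listed of 6 summed to 519.9 to 761 in the mutant libraries and 186 to 232 in the WT libraries, with TEK the largest at a mean of 433 in mutant cells and 96.4 in WT cells, and CDH5 was not listed. TEK (2.13) and PECAM1 (2.03) rose, while KDR (-0.52), VWF (-0.30) and STAB2 (0.02) did not pass. The 3 epithelial markers listed of 5 summed to 2710.4 to 3257 in the mutant libraries and 1921 to 2155 in the WT libraries, mostly SOX9, and EPCAM and CDH1 were not listed. SOX9 (0.68) rose and set that difference, while the keratins KRT19 (-0.90) and KRT7 (-0.18) had negative changes that did not pass. KRT19 was near the floor, with a mean of 6.96 in mutant cells and 13.4 in WT cells. It reached the minimum mean of 10 only through the WT libraries. These sums and markers moved with genotype, and their part in the cholesterol results was not tested. Fewer cells of a kind and less RNA per cell cannot be told apart in such bulk libraries.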

How the data were processed

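Poly(A) RNA-seq values of 6 LX-2 libraries came from 1 table of the whole series. Tools named in the submitters' processing notes, without roles, are STAR 2.5.2b, Trimmomatic 0.36, DESeq2, Subread 1.5.2 and featureCounts, with the build GRCh38. No source used here gives the strand setting or how multi-mapping reads were treated. Each column is a signal that the authors deposited: each library's gene counts over its size factor, since 100% of values were whole multiples of 1 step within 0.01 of a read. A log2 fold change and a p-value per gene, both deposited by the authors beside the signal, served as an alternative. This scaling between libraries hides any difference in the RNA content of a cell. The lowest mean listed was 9.83, and 3 reads correspond to a value of 2.72 to 3.49.

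From these values limma 3.58.1 (trend, robust) in R 4.3.3 was run on log2(value + 1) with a genotype term alone, over the 17893 genes whose mean reached 10. The pseudocount of 1 shrinks the fold change of low genes. Alternatives were a replicate block, single libraries or both numbered 1 left out, TMM and upper-quartile scaling, no filter or a minimum mean of 50, a pseudocount of 0.5 or 5, edgeR 4.0.16 with and without the block and DESeq2 1.42.0 on the recovered whole reads, the authors' columns, and an absolute log2 fold change of at least 0.5. edgeR on the recovered reads called 2872 genes lower and 3007 higher. Library deviations from the genotype means correlated at 0.545, 0.189 and 0.276 between same-numbered libraries over 17893 genes, all above 0.1, so same numbers were treated as pairs, on the evidence of the values alone. Unlike numbers did so too (mutant 2 with WT 3 at 0.299, mutant 3 with WT 2 at 0.168), so the libraries numbered 1 share a deviation while the rest is unclear. Deviations from a genotype mean cancel out within the genotype. A deviation shared by the libraries numbered 1 therefore makes those numbered 2 and 3 correlate as well. Passing 0.1 does not show that libraries 2 or 3 are paired. Chi-square per gene between libraries of a genotype was 2.72 to 35.0 in the mutant and 3.50 to 16.8 in WT, so none were merged.

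GENCODE 29, a release chosen here, matched 17828 of the 17911 IDs and gave lengths and overlaps, and RefSeq (GRCh38.p14) gave start windows. The 28 genes, the lists and the tests were chosen with earlier results of these data known. Every one of the 28 is named, and MPI as the targeted gene. Each other list names up to 4 genes past the test with the largest absolute change. These had a mean of 100 or more in the genotype where they are higher. Values of MBTPS2, NR1H2, NR1H3, SREBF1, FNTA and RABGGTA, which did not pass, are given outside this rule. So are those of CYP27A1, ABCG1 and RABGGTB, which passed. Intervals of shares are exact binomial at 95% and cover counting error only.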

Additional observations from a re-analysis of the deposited data

How the results depend on the processing

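Of the 15 cholesterol genes that passed, 11 kept their call and direction under the 18 alternatives other than a minimum fold change, and PMVK, TM7SF2, INSIG1 and SOAT1 lost the call when certain single libraries were left out. Of the 13 that did not pass, 7 passed under at least 1 alternative. With both libraries numbered 1 left out, EBP turned from -0.11 to 0.0065 and SCAP from -0.05 to 0.038, neither past the test, and the cause was not tested. With the replicate block 15 of the 28 genes fell and 4 rose, and of all genes 4410 fell and 4494 rose. The block changed no other call among the 28 beyond MVK, MVD, SC5D and INSIG2. edgeR with the block called 4640 of all genes higher. Leaving out 1 library gave 10 to 13 of the 28 genes that fell and 1 to 4 that rose, and 2020.0 to 4284 of all genes that fell and 1738 to 4389 that rose. The count of all rises moved most without mutant library 1 (4389), mutant library 2 (1738), mutant library 3 (1817) and WT library 2 (1865). Without both libraries numbered 1, 6 of the 28 rose, and 4758 of all genes fell and 4984 rose. Requiring an absolute log2 fold change of at least 0.5 left 7 of the 28 that fell and 1 that rose, all 8 among the 11 above, and removed FDFT1, LSS, MSMO1, PMVK, TM7SF2, INSIG1 and SOAT1. It left 1814 of all genes that fell and 1436 that rose. The full sterol element was in 3.03% of windows and its shorter form in 18.2%. Taking the longest transcript in place of all exons moved 20 of 28 length-scaled WT levels by over 1 SD. Depth limits MYLIP most among the 28 genes, whose lowest library held 93.1 normalised reads.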
